A study of Mus musculus with 9 samples.

Results

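Polycomb repressive complex 2 (PRC2) is the enzyme complex that methylates histone H3 on silenced chromatin. EZH2 is its histone methyltransferase and SUZ12 is a core subunit that the enzyme needs for activity and stability. The complex also binds RNA, much of it nascent transcripts near the genes that make them, and in vitro it prefers RNA rich in guanine. The peaks of RNA bound by PRC2 along mouse chromosome 8 are described here by library and strand. They were taken as every peak assigned to chromosome 8 in the deposited lists, which gave 3337 of 49266 peaks. Chromosome 8 was chosen with these peaks in view, because 4 of the 10 densest windows of 50 kb in the genome lie on it and all of them on the plus strand. Its density and those windows are therefore given as description.

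The cells were female EL 16.7 mouse embryonic stem cells, a CAST/Ei x 129/Sv/Jae hybrid line, after 7 days of differentiation. All carried the biotin ligase BirA, with Avi-GFP-mEzh2 in 2 clones and Avi-GFP-mSuz12 in 2 others, mouse EZH2 and SUZ12 with a tag that BirA biotinylates, so each library is a different stable clone with an added tagged protein. In dCLIP, RNA is crosslinked to protein with UV light, trimmed with RNase and captured with the tagged protein on streptavidin under stringent washes. The control dCLIP library, in which BirA cells carry a vector without the tagged protein, was not analysed here, and neither were the 4 PRO-seq libraries (2 from SUZ12-degron and 2 from WT cells), so there is no untagged background beside these peaks. A peak on a strand lies on RNA transcribed from that strand, and dense peaks can mark abundant or long RNA as well as strong binding. The amount of RNA was not measured in these lists, so the 2 cannot be told apart.

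The lists use the mouse build mm9: 83 peaks end beyond chromosome 8 of the later build GRCm38 and 0 beyond that of mm9. The gene table at hand is of GRCm38, so no peak was assigned to a gene, exon or intron and no sequence was read. Genes known to lie on chromosome 8, such as the cadherin genes Cdh1 and Fat1, are therefore not given counts. Regions are named by mm9 coordinates, counted from 1.

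Every library had peaks on chromosome 8 in similar numbers. The EZH2 libraries held 737 peaks in replicate 1 and 843 in replicate 2, against 806 and 951 in SUZ12 replicates 1 and 2. That was 7.04% (95% Wilson interval 6.57 to 7.55%) and 6.35% (5.95 to 6.78%) of the peaks of the EZH2 libraries, and 6.96% (6.51 to 7.44%) and 6.82% (6.41 to 7.25%) of those of the SUZ12 libraries. The proteins overlapped in this share, with means of 6.70 ± 0.485% for EZH2 and 6.89 ± 0.102% for SUZ12 (SD, n = 2 each). The difference of -0.191 percentage points, EZH2 minus SUZ12, was smaller than the spread between the EZH2 clones (two-sided p = 1 in an exact permutation over the 3 splits into pairs, which allow no p under 1 in 3). Its sign turned without EZH2 replicate 2, at 0.152. Per Mb, chromosome 8 carried 6.33 ± 0.678 peaks (SD, n = 4), second to chromosome 11 with 7.94 among the 20 chromosomes compared. Peak lists do not give read depth, so intervals cover the counting of peaks alone.

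The peaks were spread very unevenly along the chromosome, and similarly in every library. The distal part, beyond the midpoint at base 65869435, held 68.2% and 67.9% of the peaks of the EZH2 libraries and 69.6% and 69.6% of those of the SUZ12 libraries. Over the 132 windows of 1 Mb, the 13 densest held 38.7% of the peaks. Numbers of peaks per window correlated between libraries with Spearman's rho of 0.894 to 0.934 over the 6 pairs of libraries. The 132 windows of a pair share their sequence and transcription, so these are descriptions.

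In blocks of 5 Mb, the densest stretch ran from 125000001 to 130000000, near the distal end. It held 73 and 90 peaks in the EZH2 clones, with 96 and 99 in the SUZ12 clones, a mean of 17.9 per Mb and library. Next was the block from 70000001 to 75000000, with 83 and 71 EZH2 peaks and 80 and 82 SUZ12 peaks, and then that from 85000001 to 90000000, with 69 and 65 EZH2 peaks and 81 and 86 SUZ12 peaks. All of them had peaks on both strands, and 50.3%, 52.2% and 64.8% of their peaks lay on the plus strand. Density did not rise steadily towards the distal end.

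**Figure D1:**
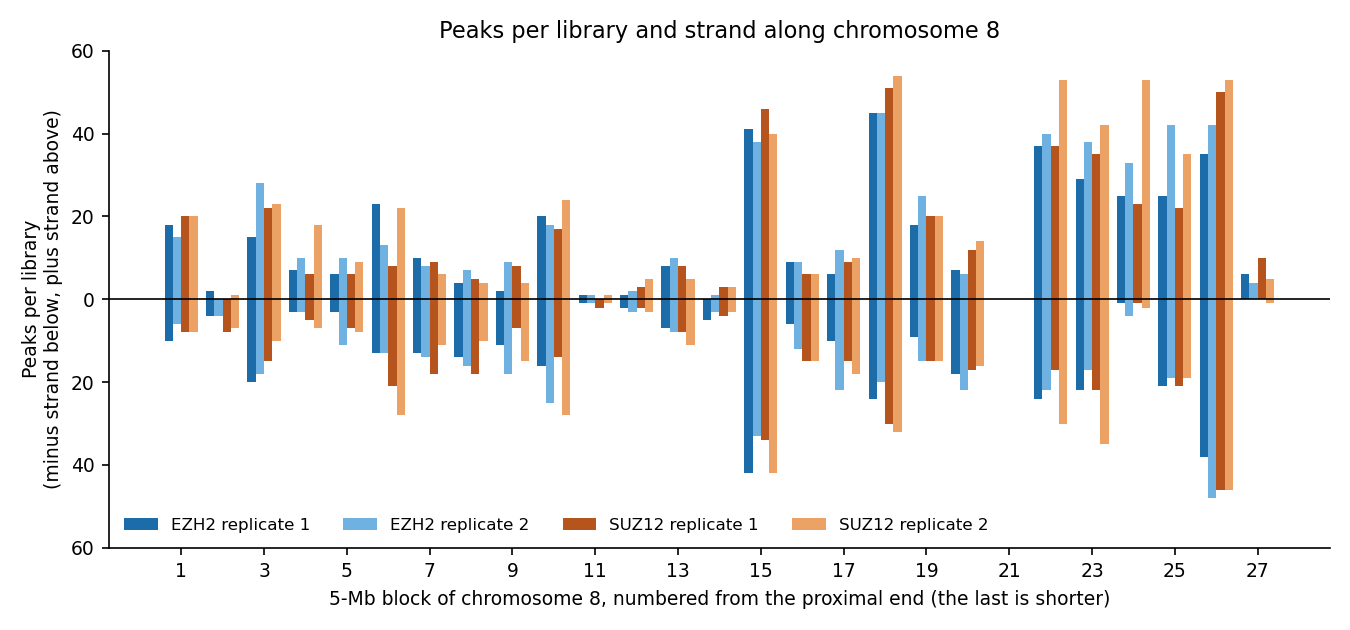
Peaks of each library in the 27 blocks of 5 Mb of chromosome 8, with plus-strand peaks above the zero line and minus-strand peaks below it; each bar is 1 library. Blocks are high or low in all 4 libraries together, and the block from 100000001 to 105000000 has 0 peaks.

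Empty stretches recurred as well. The block from 100000001 to 105000000 had 0 peaks in each of the 4 libraries. Around it, no library had a summit between 99952237 and 105078670 on either strand, a stretch of 5.13 Mb. Taken alone, the EZH2 libraries had their longest gaps at the same place, of 6.94 and 6.67 Mb, and so did the SUZ12 libraries, with 8.41 and 6.69 Mb. Of the 20 chromosomes, 4 had a longer stretch without a summit, chromosome 7 at the top with 7.70 Mb.

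Other long stretches without a summit lay between 55616964 and 59011925 (3.39 Mb), 20005834 and 23175720 (3.17 Mb), 60119395 and 63150065 (3.03 Mb), and 49755691 and 52459237 (2.70 Mb). The blocks from 50000001 to 55000000 and from 55000001 to 60000000 were the next emptiest after the empty one. The first of them held 2 peaks in each library. The second held 3 and 5 peaks in the EZH2 clones, with 5 and 8 in the SUZ12 clones. In all, 24 stretches of at least 1 Mb between neighbouring summits covered 35.8% of the chromosome. Of the 132 windows of 1 Mb, 29 (22.0%) had no peak in any library, where 16.3% of all 1-Mb windows of the 20 chromosomes had none. The first summit of the chromosome is at 3186416, after the pericentromeric start that holds no assembled sequence in the mouse builds.

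On the whole chromosome the strands were close to balance, with somewhat more peaks on the plus strand. The EZH2 libraries had 400 plus and 337 minus peaks in replicate 1 and 466 and 377 in replicate 2. The SUZ12 libraries had 436 plus and 370 minus peaks in replicate 1 and 530 and 421 in replicate 2. The plus-strand share was thus 54.3% (Wilson interval 50.7 to 57.8%) and 55.3% (51.9 to 58.6%) in the EZH2 clones and 54.1% (50.6 to 57.5%) and 55.7% (52.6 to 58.9%) in the SUZ12 clones, a mean of 54.8 ± 0.788% (SD, n = 4). These intervals treat peaks as independent, though neighbouring peaks were mostly on the same strand, so they are too narrow. Chromosome 8 was chosen with its dense plus-strand windows known, so this share is given as description. On the other chromosomes the share was 51.1% and 50.4% in the EZH2 clones, with 51.2% and 53.3% in the SUZ12 clones. The share of chromosome 8 was higher than that of the other chromosomes in each library, but 6 chromosomes had a higher mean, up to 59.7% on chromosome 12, so the tilt is not particular to chromosome 8. It lay distal to the midpoint, where 56.3% and 58.6% of EZH2 peaks and 57.8% and 58.6% of SUZ12 peaks were on the plus strand. Proximal to it these shares were 50.0% and 48.3% for EZH2 and 45.7% and 49.1% for SUZ12.

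Within the near balance of the chromosome, some stretches lay almost wholly on 1 strand, though most did not. Of the 73 windows of 1 Mb with at least 10 peaks, 11 (15.1%) had at least 90% of them on 1 strand, 8 on the plus and 3 on the minus strand, where 18% of such windows of all 20 chromosomes did. The log2 ratio of plus-strand over minus-strand peaks was tested in 1-Mb windows averaging 5 or more peaks per library, with the 4 libraries as replicates and a pseudocount of 0.5 (limma-trend over 893 windows of 20 chromosomes, two-sided, Benjamini-Hochberg threshold 0.05). On chromosome 8, 55 windows were tested and 30 were called for neither strand. More plus-strand peaks were called in 14 of them (25.5%), where 28.4% of all tested windows were, and more minus-strand peaks in 11 (20%), where 23.7% were. Both shares were near the background. The median of the 55 log2 ratios was 0.18, as it was over all 893 windows, and their median size regardless of sign was 0.98, against 1.16 over all. Without SUZ12 replicate 2 the calls for the minus strand numbered 6. Of the 14 plus-strand windows, 4 hold the dense 50-kb windows for which the chromosome was chosen and are description; 10 do not.

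The most one-sided window was 117000001 to 118000000. It held 11 and 12 plus-strand peaks in the EZH2 clones, 15 and 24 in the SUZ12 clones, and 0 minus-strand peaks in any library (log2 ratio 4.93 ± 0.33 SE, limma adjusted p = 4.65e-06). As a strand at 0 leaves the ratio to the pseudocount, its size is no measure of the true ratio. The window is part of a longer stretch, between 114535143 and 119095680, in which 13 and 12 EZH2 peaks and 16 and 29 SUZ12 peaks lay on the plus strand and none on the minus strand, 4.56 Mb without a minus-strand summit. Of these 70 plus-strand peaks, 62 lay in the window itself. Windows 115000001 to 116000000 and 118000001 to 119000000, on either side, held 0 peaks on both strands, so much of the stretch was empty.

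Window 46000001 to 47000000 was likewise on the plus strand alone, with 13 and 10 EZH2 peaks and 10 and 13 SUZ12 peaks. It holds 1 of the dense plus-strand windows for which the chromosome was chosen, with 23 of these 46 peaks, so its strand is given as description. Window 111000001 to 112000000 held 12 and 12 plus-strand peaks in the EZH2 clones and 12 and 9 in those of SUZ12, beside 1 minus-strand peak, in EZH2 replicate 2 (log2 ratio 4.15 ± 0.39 SE, limma adjusted p = 3.02e-05). Window 93000001 to 94000000 held 8 and 11 plus-strand peaks in the EZH2 clones and 11 and 9 in those of SUZ12, beside 2 minus-strand peaks in all (log2 ratio 3.55 ± 0.46 SE, limma adjusted p = 0.000182). In all of these windows plus-strand peaks outnumbered minus-strand peaks in each library. The windows were picked by their strand ratio in the same libraries, so this separation is description. The 5-Mb block from 115000001 to 120000000 was 94.4% plus strand over its 142 peaks.

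Stretches on the minus strand lay elsewhere. Window 83000001 to 84000000 held 0 plus-strand peaks in any library, against 3 and 13 minus-strand peaks for EZH2 and 5 and 8 for SUZ12 (limma adjusted p = 0.000158). A pair of neighbouring windows formed a longer stretch. Window 48000001 to 49000000 held 4 plus-strand peaks in all, against 4 and 10 minus-strand peaks for EZH2 and 2 and 16 for SUZ12 (log2 ratio -2.36 ± 0.50 SE, limma adjusted p = 0.00287). Window 49000001 to 50000000 held 6 plus-strand peaks in all, against 11 and 11 minus-strand peaks for EZH2 and 10 and 9 for SUZ12 (log2 ratio -2.47 ± 0.35 SE, limma adjusted p = 0.00028). They directly follow a pair of windows called for the plus strand, so the leading strand changed between neighbouring windows there.

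A plus-strand gap of 4.35 Mb between 5639841 and 9988137 held 3 and 4 minus-strand peaks in the EZH2 clones, with 8 and 7 in the SUZ12 clones. Among the 10 called windows with the largest ratio in each direction, those not yet described had log2 ratios of 1.29 to 2.78 for the plus strand and of -2.28 to -1.0 for the minus strand. The largest of them were 119000001 to 120000000, with 65 plus-strand against 8 minus-strand peaks over the 4 libraries, and 27000001 to 28000000, with 3 against 18. Of these 20 windows, 13 stayed past the threshold in each alternative in which they were tested. The 13 include 46000001 to 47000000 and 109000001 to 110000000. Both hold dense plus-strand windows for which the chromosome was chosen, so their calls are description. The minus-strand call of window 75000001 to 76000000 was the least even. It held 6 and 3 plus-strand against 4 and 11 minus-strand peaks for EZH2, and 2 and 0 plus-strand against 12 and 13 minus-strand peaks for SUZ12 (log2 ratio -2.07 ± 0.66 SE, limma adjusted p = 0.0234). EZH2 replicate 1 went the other way, and the adjusted p was 0.0873, 0.105 and 0.156 in limma without EZH2 replicate 2, SUZ12 replicate 1 and SUZ12 replicate 2. The log2 ratio itself was -1.17 without SUZ12 replicate 2 and -2.93 without EZH2 replicate 1. Calls of other windows were also lost with a library left out. For window 13000001 to 14000000 the adjusted p in limma was 0.0617 without EZH2 replicate 2, 0.108 without SUZ12 replicate 1 and 0.112 without SUZ12 replicate 2, and for 27000001 to 28000000 it was 0.0532 without EZH2 replicate 2. Without SUZ12 replicates 1 and 2 in turn it was 0.0604 and 0.0596 for 34000001 to 35000000 and 0.113 and 0.0689 for 90000001 to 91000000. Without EZH2 replicates 1 and 2 in turn it was 0.0840 and 0.0839 for 97000001 to 98000000. The plus-strand call of window 129000001 to 130000000 was lost in the 50% of peaks with the lowest FDR, where its log2 ratio was 0.97 (limma adjusted p = 0.163), against 1.83 with all peaks. In 22 of the 25 called windows of the chromosome all 4 libraries leaned to the called strand. The calls rest on the same 4 libraries, so this agreement is description. Its share among called windows of the other chromosomes was not counted, so it is no trait of chromosome 8.

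**Figure D2:**
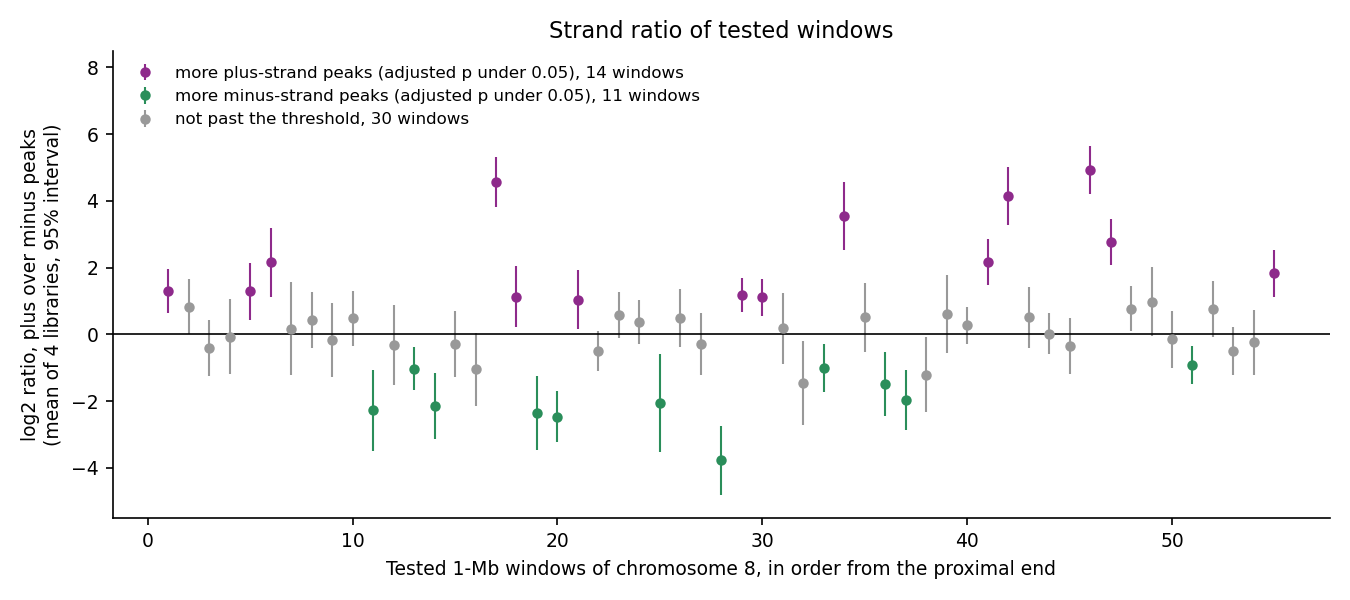
The log2 ratio of plus-strand over minus-strand peaks in the 55 tested 1-Mb windows of chromosome 8, in order from the proximal end; points are means of 4 libraries and lines are 95% intervals from limma. Purple marks the 14 windows called for the plus strand, green the 11 called for the minus strand, and the highest point, 4.93, is window 117000001 to 118000000.

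Neighbouring peaks of a library were mostly on the same strand. The share of neighbours on the same strand was 69.2% and 75.7% in the EZH2 clones, with 74.0% and 76.1% in the SUZ12 clones, against 69.8% and 72.3% for EZH2 and 72.9% and 72.2% for SUZ12 on the other chromosomes. Joining all 4 libraries gave 37 runs of at least 20 summits with no summit of the other strand between them, 23 on the plus and 14 on the minus strand, which held 36.4% of the peaks of chromosome 8. Runs of that length held 31.0% of the peaks of the other chromosomes. Runs grow with density, and the 2 were not separated. In the EZH2 libraries 0 and 2 peaks (0 and 0.237%) overlapped a peak on the other strand in the same library, against 0.164% and 0.129% on the other chromosomes. In the SUZ12 libraries 0 and 2 peaks (0 and 0.210%) did, against 0.149% and 0.231%, so chromosome 8 was near the other chromosomes in this.

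Dense short windows recurred in all libraries. Over windows of 50 kb counted per strand, 915 had a peak on chromosome 8 and 152 of them (16.6%) had a peak in every library, where 12.5% of such windows of all 20 chromosomes did. At least 2 peaks in every library were found in 39 (4.26%, where 2.19% did over all chromosomes), 24 on the plus and 15 on the minus strand. With the 50% of peaks that had the lowest FDR, 53 windows had a peak in every library. These counts are part of why the chromosome was chosen and carry no test. At the other end, 1865 of the 2635 places of 50 kb had no peak on either strand.

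The window 109150001 to 109200000 on the plus strand led, with 6 and 6 EZH2 peaks and 6 and 8 SUZ12 peaks, and no peak on the minus strand. Its 26 peaks fell on 14 sites, a site being the merged extent of overlapping peaks on 1 strand, and 13 of the 26 peaks (50.0%) were overlapped by a peak of the other clone of the same protein. Their median width was 149 bp, and together they covered 2935 bp of the 50 kb. Summits ran from 109150654 to 109194095, and the 2 most 3′ sites were found in every library. The lowest FDR in this window, 2.57e-24 in EZH2 replicate 2, was at the first of them.

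The window 87550001 to 87600000 held 5 and 7 EZH2 peaks, with 10 and 7 SUZ12 peaks, on 21 sites, of which 16 were found in 1 library. Window 86400001 to 86450000 held 5 and 6 EZH2 peaks, with 7 and 6 SUZ12 peaks, on 18 sites, with 0 sites found in every library. Its first summit was at 86424690, so its peaks filled the 3′ side of the window and reached the window's end. Window 46100001 to 46150000 held 6 and 6 EZH2 peaks, with 5 and 6 SUZ12 peaks, on 14 sites, and 43.5% of its peaks were overlapped in the other clone. Sharing in these dense windows thus ranged widely, from 25% in window 86400001 to 86450000 to the 50.0% of the leading window.

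**Figure D3:**
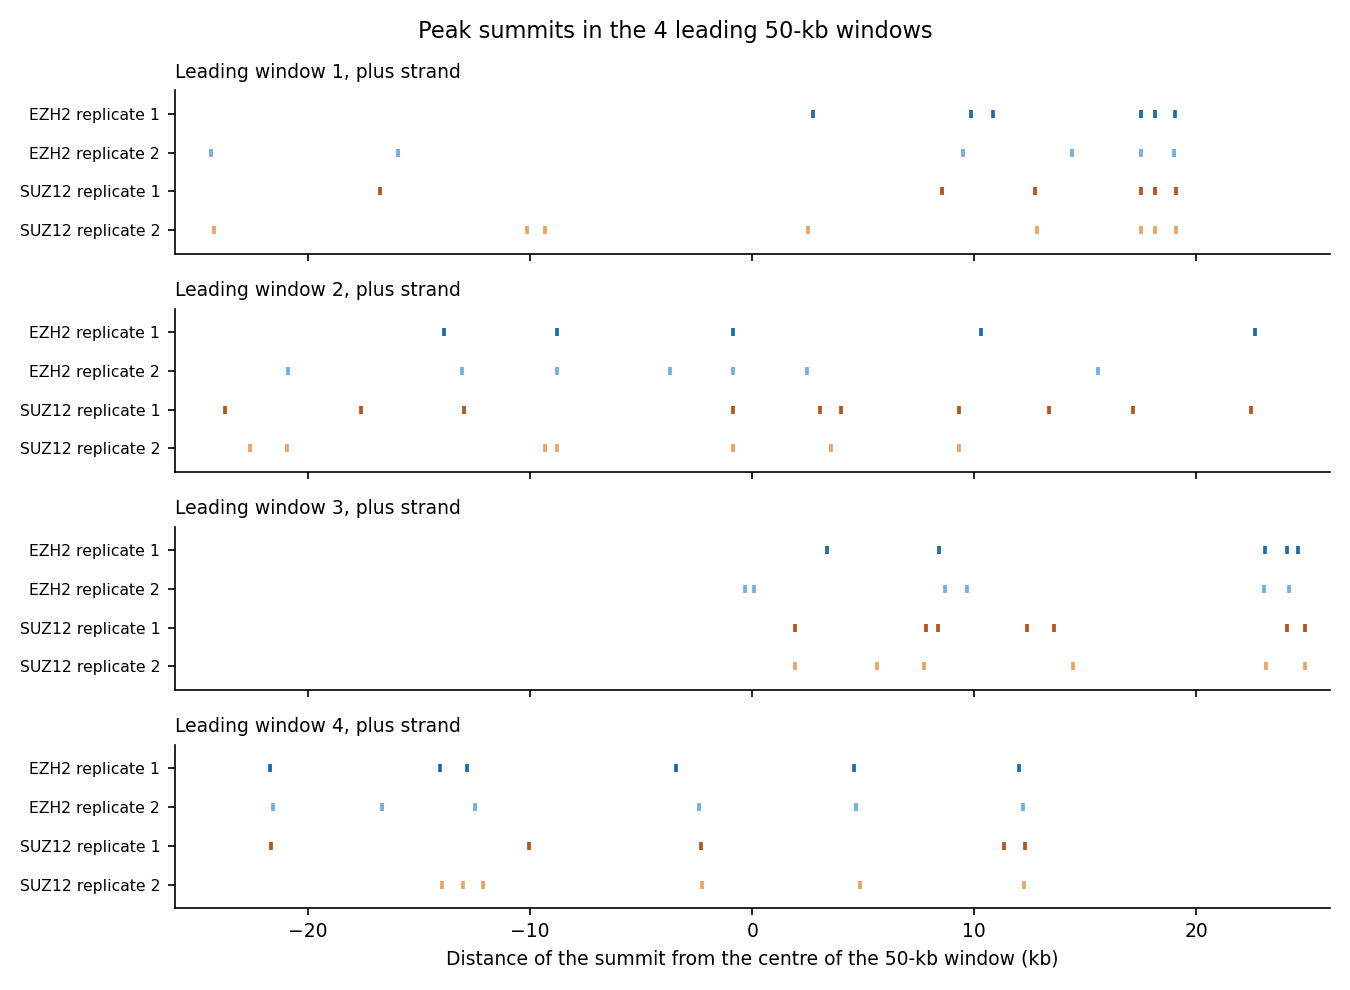
Summits of plus-strand peaks in the 4 leading 50-kb windows of chromosome 8, by library, as distance from the window's centre in kb; each mark is 1 peak. Marks that line up in all 4 libraries, as the right-most in the leading window, are sites found in every library, and most other marks stand in 1 library.

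The other 6 of the 10 leading windows had at least 3 peaks in every library. They were the plus-strand windows 119800001 to 119850000 (4, 6, 4 and 6 peaks in EZH2 replicates 1 and 2 and SUZ12 replicates 1 and 2), 26650001 to 26700000 (7, 3, 3 and 5) and 113550001 to 113600000 (3, 3, 4 and 5), and the minus-strand windows 34900001 to 34950000 (4, 5, 4 and 4), 125000001 to 125050000 (3, 6, 4 and 4) and 125400001 to 125450000 (3, 4, 4 and 4). The first window outside the 10, on the plus strand at 74100001, held 3, 3, 3 and 5. Minus-strand windows 34900001 to 34950000 and 125400001 to 125450000 recurred between clones in number of peaks. Yet 0 of their 17 and 15 peaks met a peak of the same protein's other clone. Of their 16 and 13 sites, 1 and 2 were found in 2 libraries, 1 of each protein. Over the 10 windows, 26.1% and 21.2% of EZH2 peaks and 21.6% and 20% of SUZ12 peaks were overlapped in the other clone, against 8.68% and 7.59% of EZH2 peaks and 7.95% and 6.70% of SUZ12 peaks on the remainder of chromosome 8. The windows were chosen by number of peaks in every library, and crowded peaks meet more easily, so this gap is description.

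Clusters differed in how their peaks were laid out. The 62 plus-strand peaks of window 117000001 to 118000000 were scattered over 814 kb and 61 sites, of which 1 was found in more than 1 library, and no place of 50 kb held more than 12 of them. The 46 plus-strand peaks of window 46000001 to 47000000 fell on 34 sites, 8 of them found in at least 2 libraries, and 23 of the peaks lay in 1 place of 50 kb. In windows 93000001 to 94000000 and 129000001 to 130000000, each of the 39 and 49 plus-strand peaks was a site of its own. Over all chromosomes, 8.08% of sites were found in at least 2 libraries.

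Single sites found in every library were few. The merged peaks of chromosome 8 made up 2996 sites. Among them, 18 (0.601%) carried a peak of each of the 4 libraries, where 0.908% of sites of the whole series did. A further 27 sites (0.901%) had a peak in 3 libraries, 225 (7.51%) in 2 and 2726 (91.0%) in 1, against 1.24%, 5.84% and 92.0% of the sites of the other chromosomes. Sites found in at least 2 libraries made up 9.01% on chromosome 8, where 8.08% of sites of the whole series were, so sites of 2 libraries were a larger share and those of 3 or 4 a smaller one. These shares were not tested. Of the 18 sites, 7 lay on the plus and 11 on the minus strand. They were 178 to 863 bp long, with a median of 277 bp, and 4 of them lay in a leading 50-kb window.

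The 2 strongest of the 18 sites lay at the 3′ end of the leading window. The site at 109192405 to 109193267, on the plus strand, had an FDR of 3.55e-13 and 2.57e-24 in the EZH2 clones, with 7.93e-10 and 1.54e-09 in the SUZ12 clones, as the authors' caller gave it. Its best peak was 240 and 800 bp wide in the EZH2 clones, with 218 and 134 bp in the SUZ12 clones, so EZH2 replicate 2 stood apart in both measures. The other 3 libraries had a pair of separate summits within this site, where EZH2 replicate 2 had a single wide peak. The site at 109193939 to 109194165 had an FDR of 1.14e-11 and 1.41e-10 in the EZH2 clones, with 1.27e-08 and 6.43e-10 in the SUZ12 clones. It had 16 other plus-strand peaks within 25 kb upstream and 0 within 25 kb downstream, and the next plus-strand summit lay 35.6 kb on.

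The site at 46136903 to 46137392, in the fourth leading window, singled out after its values were seen, was placed in the same way, with 11 peaks within 25 kb upstream, 0 downstream and the next plus-strand summit 654 kb away. Its FDR was 2.29e-07 and 2.14e-06 in the EZH2 clones, with 0.0079 and 3.77e-12 in the SUZ12 clones, the clones of SUZ12 lying far apart. By contrast, the site at 87574055 to 87574246 stood inside its cluster, with 13 peaks within 25 kb upstream and 12 downstream, and summits of all libraries within 27 bp of each other.

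Other recurrent sites stood alone. The minus-strand site at 126123701 to 126123966 had an FDR of 2.26e-07 and 1.50e-09 in the EZH2 clones, with 7.49e-06 and 8.07e-09 in the SUZ12 clones, and no other minus-strand peak within 25 kb. The minus-strand site at 53282106 to 53282349 had its nearest minus-strand summit 1390.5 kb upstream and 3526.5 kb downstream, in 1 of the emptiest stretches of the chromosome. Its FDR was 0.000125 and 4.17e-05 in the EZH2 clones, with 6.08e-06 and 0.000124 in the SUZ12 clones. In all, 5 of the 18 sites had no other peak of their strand within 25 kb.

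The remaining sites among the 10 with the lowest weakest FDR lay on the minus strand at 98269872 to 98270159 (at most 4.31e-08 in every library) and 97346368 to 97346655 (at most 6.14e-05), and on the plus strand at 113446966 to 113447263 (at most 1.16e-05), 13876047 to 13876294 (at most 0.000125) and 87396215 to 87396745 (at most 0.000195). None of the 18 sites was overlapped by a peak on the opposite strand in any library.

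**Figure D4:**
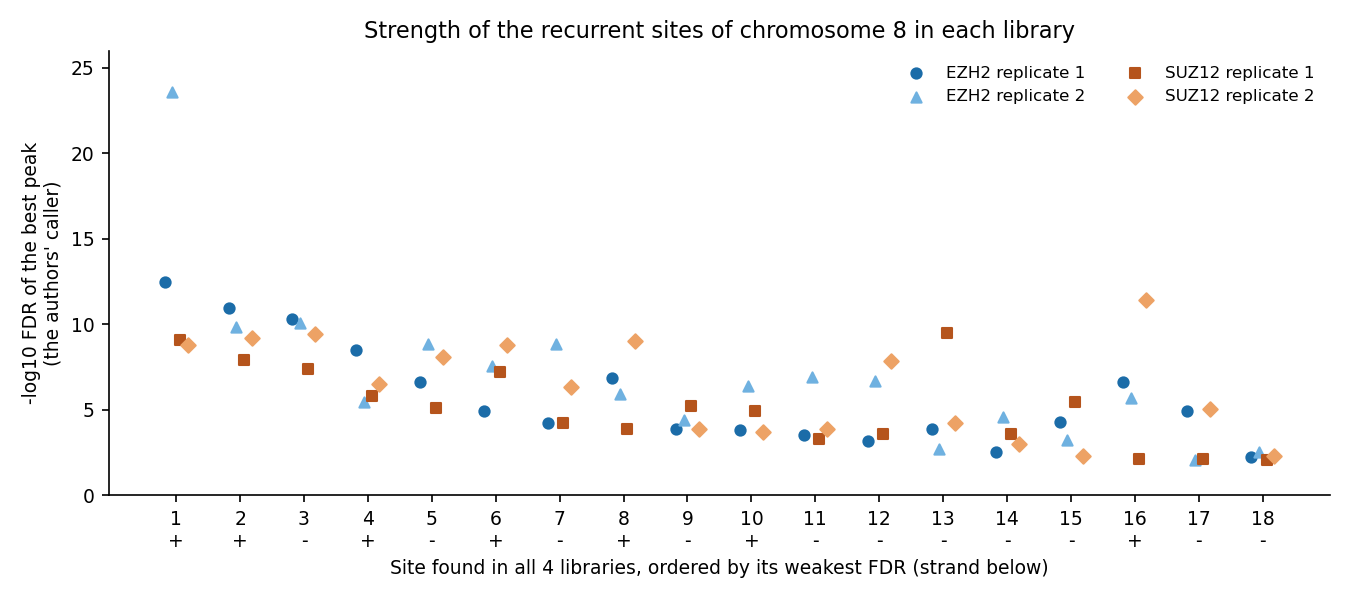
Strength of the 18 sites of chromosome 8 with a peak in all 4 libraries, as -log10 of the FDR of the best peak in each library, ordered by the weakest FDR; the strand is printed under each site. Libraries differ by several orders of magnitude at a site, and EZH2 replicate 2 at the first site, with an FDR of 2.57e-24, is the highest point.

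Whether EZH2 and SUZ12 favoured different stretches was asked over 1-Mb windows per strand that averaged 5 or more peaks per library. On chromosome 8, 57 stranded windows were tested and 0 passed an adjusted p of 0.05 in limma, as 0% of the 846 windows of all chromosomes did; 3 had an unadjusted p under 0.05, and 4.49% of all windows did. The median log2 difference, EZH2 minus SUZ12, was 0.03 on chromosome 8 and 0.00 over all windows. The median distance from the estimate to either end of its 95% interval was 0.86 in log2 units (1.82-fold), an unadjusted interval. Among windows simulated with a known difference, limma called 13% of 2-fold and 67.7% of 4-fold differences at the adjusted threshold, so differences of 2-fold were mostly not detectable in a single window. The simulated counts were Poisson, with no added spread between clones, so these shares may be too high for the real libraries.

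The 3 windows with an unadjusted p under 0.05 were all on the minus strand. Window 26000001 to 27000000 held 5 and 3 EZH2 peaks against 10 and 19 SUZ12 peaks (log2 difference -1.60 ± 0.43 SE, limma adjusted p = 0.212), and its adjusted p was 0.0973 to 0.991 over the alternatives. Window 126000001 to 127000000 held 10 and 11 EZH2 peaks against 4 and 5 SUZ12 peaks (1.25 ± 0.44 SE, limma adjusted p = 0.901). Window 73000001 to 74000000 held 14 and 11 EZH2 peaks against 10 and 4 SUZ12 peaks (1.02 ± 0.44 SE, limma adjusted p = 0.933). None of the 3 passed the threshold over all windows. They were picked by p-value, which favours windows where the libraries of the proteins separate, so their separation is description.

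The strand ratio itself was compared between the proteins in the same way. In limma, 0 of the 55 windows of chromosome 8 passed an adjusted p of 0.05, as 0% of all 893 did. Of the 55, 6 had an unadjusted p under 0.05, a larger share than the 4.37% of all 893. With windows of 2 Mb, 2 of 42 did, and without the filter on peaks per window 15 of 103 did. Whether this share differs from that of the other chromosomes was not tested. At single sites, 38 were found in both EZH2 libraries and no other and 40 in both SUZ12 libraries and no other. The pairs of libraries that cross the proteins had between 32 and 42 such sites each, a range that holds both values.

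**Figure D5:**
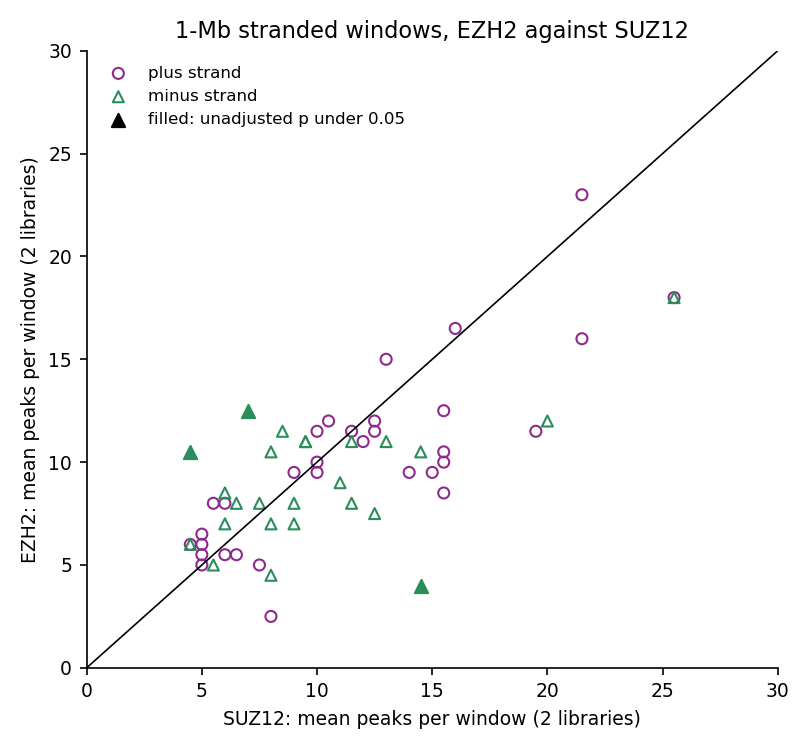
Mean peaks per library in the 57 tested 1-Mb stranded windows of chromosome 8, EZH2 on the vertical and SUZ12 on the horizontal axis, with the line of equal numbers; each point is the mean of 2 libraries. The 3 filled points have an unadjusted p under 0.05, and 0 windows passed the adjusted threshold.

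Chromosome 8 was close to the other chromosomes in the width and sharing of its peaks. Median widths were 172 and 180 bp in the EZH2 clones on chromosome 8, against 177 and 188 bp on the other chromosomes, and 151 and 135 bp in the SUZ12 clones, against 151 and 139 bp. The mean difference of -4.25 bp, chromosome 8 minus the others, gave p = 0.25 in an exact sign-flip permutation test (two-sided, n = 4, no p under 1 in 8 is possible), lower in 3 of 4 libraries. The other clone of the same protein overlapped 9.77% and 8.42% of the chromosome 8 peaks of the EZH2 libraries, against 9.86% and 7.75% on the other chromosomes, and 8.81% and 7.47% of those of the SUZ12 libraries, against 9.70% and 8.03%. The mean difference was -0.217 percentage points (p = 0.625 in the same exact permutation test, n = 4). It was lower on chromosome 8 in 3 of 4 libraries, and its sign turned to 0.293 without either SUZ12 replicate 1 or SUZ12 replicate 2, since both SUZ12 values need both clones.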

How the data were processed

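The data were 8 lists of peaks, 1 per dCLIP library and strand, in which the authors deposited the position, strand, summit and false discovery rate (FDR, a p-value adjusted by the caller) of each peak. Per the submitters' processing notes, bedtools 2.17.0, SAMtools 0.1.18, TopHat2 2.0.8 and Trim Galore 0.3.3 were used with the build mm9; peak names carry the prefix of PeakRanger, whose settings and control are not given in the sources used here. Peaks are not reads, so no count model was used.

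Peaks were counted by summit in windows per strand and library. Strand ratios used log2((plus + 0.5)/(minus + 0.5)); EZH2 and SUZ12 were compared on log2((peaks + 0.5)/(peaks in the library + 1) x 10000), both with limma-trend over all windows averaging 5 or more peaks per library, with Benjamini-Hochberg adjustment. Peaks overlapping by at least 1 bp on a strand were shared and merged in chains into sites. Single values were tested by exact permutation. Alternatives were other window sizes, offsets, filters, pseudocounts and scalings, peaks in the lower 50% of FDR values per library, other definitions of overlap, omission of each library in turn, and a replicate block. Poisson counts were simulated around the real windows, with no added spread between clones. In them, limma called 28.4% of 2-fold and 73.6% of 4-fold strand ratios and 2 of 724 unchanged windows (910 tested). Between proteins, it called 13% of 2-fold and 67.7% of 4-fold differences (862 tested).

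The regions named were the 10 leading 50-kb windows, the 10 recurrent sites with the lowest weakest FDR, the longest stretches without a summit, up to 10 called 1-Mb windows per direction and the densest and emptiest 5-Mb blocks; runs on 1 strand, the layout of clusters and distances to the nearest peak were added after the data were seen. The members and lists were chosen with earlier results of these data known. The precision of a share is limited by the 737 to 951 peaks of a library on chromosome 8. The libraries are separate clones of 1 cell line, and p-values measure the spread between them. Read depth is unknown. Python 3.11.15, NumPy 2.4.6, pandas 2.3.3, SciPy 1.17.1, R 4.3.3, limma 3.58.1 and GenomeInfoDb 1.38.1 were used.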

Additional observations from a re-analysis of the deposited data

Results flagged for a closer look

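In 2 tested windows of 1 Mb, both libraries of a protein leaned to the opposite strand from both libraries of the other protein. These windows were picked for this separation, so it is given as description. How many tested windows of the other chromosomes show it was not counted. Window 26000001 to 27000000 held 15 plus and 5 minus peaks and 7 plus and 3 minus peaks in the EZH2 libraries, against 7 plus and 10 minus peaks and 17 plus and 19 minus peaks in the SUZ12 libraries. The log2 strand ratio differed by 1.62 ± 0.54 (SE), EZH2 minus SUZ12. Window 126000001 to 127000000 went the other way, with 9 plus and 10 minus peaks and 10 plus and 11 minus peaks in the EZH2 libraries, against 14 plus and 4 minus peaks and 16 plus and 5 minus peaks in the SUZ12 libraries, a difference of -1.77 ± 0.51 (SE). The test of the difference gave an adjusted p of 0.942 in limma for both, so neither is shown to differ between the proteins.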

How the results depend on the processing

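The number of windows called for the plus strand was 10 to 21 over all alternatives and 11 to 12 with a library left out. For the minus strand it was 6 with windows of 2 Mb, where 13 were called for the plus strand. With a library left out it was 6 to 11 for the minus strand, the lowest without SUZ12 replicate 2. The cause was not tested in either case. No alternative called a window between the proteins, in number or in strand ratio. The difference in the share of peaks on chromosome 8 ran from -0.534 to 0.152 percentage points with a library left out, the highest without EZH2 replicate 2. The difference in sharing between clones turned to 0.201 percentage points for summits within 100 bp and ran from -0.728 to 0.293 with a library left out; the cause was not tested. In the 50% of peaks with the lowest FDR the plus-strand share was 53.1%, and 53 windows of 50 kb had a peak in every library, as fewer peaks were counted. With the replicate number as a block, 11 windows were called for the plus strand and 11 for the minus strand, and 0 between the proteins, and window 13000001 to 14000000 had an adjusted p of 0.0502 in limma. Deviations of same-numbered libraries correlated at 0.117 over 846 windows. The labels name no shared day or batch, so whether the numbers pair the samples is unknown. Of 155 alternatives for the 20 named windows, 134 stayed past the threshold, 21 did not and 0 turned. The 20 include 46000001 to 47000000 and 109000001 to 110000000, which hold dense windows for which the chromosome was chosen. Single-library peaks make up most of each list, and read depth and the mock background were not available to weigh them.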

Other observations

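Some strong peaks of chromosome 8 were found in 1 library alone. The strongest, on the minus strand at 126416485 to 126416831 in EZH2 replicate 1, was 347 bp wide with an FDR of 3.74e-14, lower than any FDR at the sites found in every library but that of EZH2 replicate 2 at 109192405 to 109193267. The next were on the plus strand at 96696649 to 96696825 in SUZ12 replicate 2 (2.01e-11), 123197835 to 123198097 in EZH2 replicate 2 (6.78e-10), 86239117 to 86239331 in SUZ12 replicate 1 (7.93e-10) and 129955143 to 129955354 in EZH2 replicate 1 (9.70e-10).

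The summit stood on the first base of the peak for 44 of 400 and 73 of 466 plus-strand peaks of the EZH2 libraries, against 2 of 436 and 4 of 530 in the SUZ12 libraries, and for 0 minus-strand peaks of any library. A single peak of chromosome 8 was wider than 3 kb, on the plus strand at 125611131 to 125620000 in SUZ12 replicate 1, 8870 bp long with an FDR of 0.00819, and its end lies on a multiple of 10 kb.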
